A study of Mus musculus with 2 samples.

Results

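The genes described here are Bdnf, its receptor gene Ntrk2, and 6 genes at or near loci linked to body weight: Fto, Rpgrip1l, Irx3, Irx5, Negr1 and Adcy3. They were chosen by symbol, and all 8 were found, once each, among the 32285 genes of the matrix. The data are single-nucleus RNA counts from the hypothalamus of wild type male C57BL/6J mice at 10 to 12 weeks of age, the only genotype and condition sampled. NeuN-stained nuclei were sorted and captured together, with antibody hashtags named ARC and PVH. These names are taken here as the piece of tissue each nucleus came from, although the sample labels name only ARC tissue. The call is uncertain for single nuclei. A stricter hashtag call (positive quantile 0.99) left 1229 ARC-hashtag and 407 PVH-hashtag neurons, against the 3738 and 3074 used here. All mice share 1 matrix in which nuclei cannot be traced to a mouse, so there was no biological replicate and no test between groups could be made. Every interval given is a 95% exact interval that covers counting error only.

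BDNF is a secreted neurotrophin that binds TrkB, the receptor tyrosine kinase encoded by Ntrk2, and this pair is known to restrain food intake through neurons of the hypothalamus. FTO removes methyl groups from RNA, and variants in the introns of its gene are among the best known common associations with human obesity. Those introns contact the promoter of Irx3, a homeobox transcription factor gene, and Irx5 is a further member of the same Iroquois cluster. Rpgrip1l lies on the other side of Fto and encodes a protein of the ciliary transition zone, whereas Adcy3 encodes the adenylyl cyclase of neuronal primary cilia. NEGR1 is a cell adhesion protein of the IgLON family on the neuronal surface.

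In the mouse genome (build GRCm38, GENCODE M21), Bdnf occupies chr2:109674700-109727007 on the plus strand and Ntrk2 chr13:58806569-59133970 on the plus strand. Negr1 spans 755 kb at chr3:156561794-157316445 on the plus strand, and Adcy3 lies at chr12:4133103-4213525 on the plus strand. The other 4 genes share chromosome 8. Rpgrip1l (chr8:91217030-91313262, minus strand) and Fto (chr8:91313525-91668439, plus strand) are arranged head to head, with 263 bases between their starts. Irx3 (chr8:91798525-91802067, minus strand) starts 489 kb beyond the Fto start, and Irx5 (chr8:92357625-92376286, plus strand) 1044 kb beyond it. Because Rpgrip1l and Fto diverge from so short an interval, the 300-base RefSeq promoter window of Fto (GRCm38.p6, 250 bases before to 50 after the start; chr8:91313275-91313574, plus strand) is printed here, with the 198 bases it shares with the Rpgrip1l window in capitals. The Bdnf window (chr2:109692186-109692485, plus strand) is 1 of 7 such windows at separate Bdnf starts, and it is printed because it was the only one holding the core of a cAMP response element, searched as TGACG on either strand and marked in capitals. The same 5 letters were present in 20.8% of all 32851 windows. A gene count does not tell the 7 starts apart, and the match is a description of the sequence alone.
Fto: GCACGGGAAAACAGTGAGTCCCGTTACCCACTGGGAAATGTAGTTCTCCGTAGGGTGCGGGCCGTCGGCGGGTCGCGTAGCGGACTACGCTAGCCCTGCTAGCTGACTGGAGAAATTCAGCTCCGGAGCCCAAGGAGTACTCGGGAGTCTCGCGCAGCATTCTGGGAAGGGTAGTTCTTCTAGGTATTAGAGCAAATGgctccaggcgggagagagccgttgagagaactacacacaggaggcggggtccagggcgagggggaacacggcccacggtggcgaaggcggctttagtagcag
Bdnf: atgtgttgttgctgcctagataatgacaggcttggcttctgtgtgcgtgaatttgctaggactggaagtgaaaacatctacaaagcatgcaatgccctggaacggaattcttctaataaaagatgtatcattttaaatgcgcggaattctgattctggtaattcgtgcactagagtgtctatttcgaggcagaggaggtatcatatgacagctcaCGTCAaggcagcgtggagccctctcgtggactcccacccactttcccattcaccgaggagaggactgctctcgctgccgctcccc

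**Figure D1:**
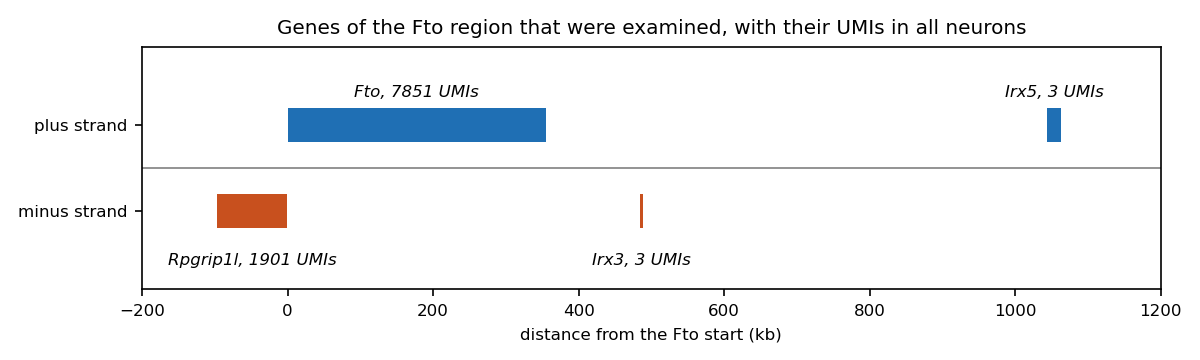
Map of the 4 examined genes of the Fto region, drawn to scale as distance in kb from the Fto start (horizontal axis), with plus-strand genes above and minus-strand genes below the line. Fto has 7851 UMIs and its head-to-head neighbour Rpgrip1l 1901 UMIs in all neurons, whereas Irx3 and Irx5 have 3 UMIs each.

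The hashtags assigned 3767 nuclei to ARC and 3074 to PVH, and the ARC nuclei included 1 cluster of 29 nuclei with astrocyte and tanycyte markers that was set apart. Unique molecular identifiers (UMIs, counted once per captured RNA molecule) summed to 19406716 in 3738 ARC-hashtag neurons and to 16732895 in 3074 PVH-hashtag neurons, with medians of 4832.5 and 5039 per nucleus. Levels are UMIs per 1000000 UMIs of a group (CPM). Neurons fell into 13 ARC-hashtag and 15 PVH-hashtag clusters, numbered by size, which were made without the 8 genes. Clusters were called AGRP-like, POMC-like, SST-like, KNDy-like (kisspeptin, neurokinin B and dynorphin), GHRH-like, Dopaminergic-like, VMH-like (ventromedial hypothalamus) or SIM1-like from marker lists, and 6 ARC-hashtag and 9 PVH-hashtag clusters stayed unnamed. Summed astrocyte markers reached 7.99 to 82.8 CPM in neuron clusters against 2467 CPM in the set-apart cluster. Summed oligodendrocyte markers reached 357 CPM in PVH cluster 2 and 285 CPM in ARC cluster 2, against a median of 64.5 CPM. Summed tanycyte markers ran from 17.6 to 770 CPM in neuron clusters, with a median of 163 CPM, against 2211 CPM in the set-apart cluster.

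Bdnf was the member with the sharpest pattern. It was a sparse transcript, with 117 UMIs in ARC-hashtag neurons (6.03 CPM, 4.99 to 7.23) and 234 UMIs in PVH-hashtag neurons (14.0 CPM, 12.2 to 15.9). The level was 2.32-fold higher on the PVH side (1.85 to 2.92). Of the 14094 genes with at least 100 UMIs over both sides, 4.53% were at least 1.5-fold higher in PVH-hashtag neurons, 4.07% were at least 1.5-fold lower and 8.6% passed in either direction. Bdnf was the only one of the 6 members measured here to pass.

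A large share of the PVH-side signal came from 1 cluster. PVH cluster 8, with 186 nuclei (6.05% of PVH-hashtag neurons), held 121 of the 234 UMIs, or 51.7% (45.1 to 58.3). Its Bdnf level was 107 CPM (88.5 to 127), against 7.24 CPM in the other PVH-hashtag neurons, a 14.7-fold difference (11.3 to 19.2). In this comparison 6.22% of 10948 genes were at least 1.5-fold higher, and by fold Bdnf ranked 13th of the 8685 genes with at least 20 UMIs in the cluster. The cluster was singled out after its Bdnf level was seen, so these values are a description.

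PVH cluster 8 is called the Sim2 cluster after the gene that led it. Sim2, a bHLH-PAS transcription factor gene, reached 104 CPM there and 1.35 CPM in the other PVH-hashtag neurons. Sim1, the related factor that specifies paraventricular neurons, was at 198 CPM against 102 CPM. The vesicular glutamate transporter gene Slc17a6 was at 113 CPM and the GABA transporter gene Slc32a1 at 21.1 CPM, so the cluster was counted as glutamatergic. Crhr2, a receptor for urocortins, was 21.9-fold higher (59.0 against 2.69 CPM) and Ebf1, a transcription factor gene, 13.7-fold higher (616 against 44.9 CPM). Trh, the thyrotropin-releasing hormone precursor, was at 107 CPM in the cluster. The cluster passed no class rule and therefore carries no cell type name. Among activity-induced genes, Fos stood at 15.0 CPM on 17 UMIs against 3.72 CPM and Nr4a1 at 22.9 CPM on 26 UMIs against 13.7 CPM. Npas4 stood at 4.41 against 4.62 CPM, Junb at 10.6 against 11.2 CPM and Egr1 at 2.64 against 3.14 CPM, and Arc had 1 UMI in the cluster. Their part in the Bdnf level was not tested.

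Within the Sim2 cluster Bdnf was found in 77 of 186 nuclei, 51 with 1 UMI, 11 with 2, 12 with 3 and 3 with 4. Outside it, 100 of 2888 PVH-hashtag neurons had a Bdnf UMI and none of these had more than 2. On the ARC side 104 of 3738 neurons had one, of which 93 had 1 UMI and 1 nucleus had 4. The share of nuclei with a UMI was thus 41.4% in the Sim2 cluster at a median of 5723.5 UMIs and 3.46% in the other PVH-hashtag neurons at a median of 4989.5 UMIs. PVH cluster 4, a glutamatergic cluster with Scgn and Agtr1a among its leading genes and a median of 4606 UMIs, had the lowest share, 0.333% (1 of 300 nuclei). After each nucleus was thinned to 1000 UMIs the shares were 7.53% (4.18 to 12.3) in the Sim2 cluster, 0.831% (0.533 to 1.23) in the other PVH-hashtag neurons and 0 of 300 in cluster 4.

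Across the 28 neuron clusters Bdnf ran from 107 CPM in the Sim2 cluster to 0.688 CPM in PVH cluster 4, with a median of 4.18 CPM. The Sim2 cluster was the only one whose interval stood apart from its neighbour in the order. The ARC-side VMH-like cluster came second with 25 UMIs (22.6 CPM, 14.6 to 33.4), and SIM1-like PVH cluster 10 next with 16 UMIs (21.6 CPM, 12.4 to 35.1), so these 2 did not differ beyond counting error. The VMH-like level was 4.50-fold that of the other ARC-hashtag neurons (2.77 to 7.07), although the 10 UMIs expected in a class, the minimum set for counting a gene as measured, were not reached. Next in the order was PVH cluster 1 with 13.6 CPM (9.49 to 18.9). That cluster passed the VMH rule too, but on 7 UMIs of Nr5a1 (2.72 CPM) and 5 of Fezf1, whereas its Sim1 level was 80.2 CPM, and it was led by other genes, among them Ebf2 and Cyp19a1. It is therefore called by its number, although the plots show the name the rule gave.

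**Figure D2:**
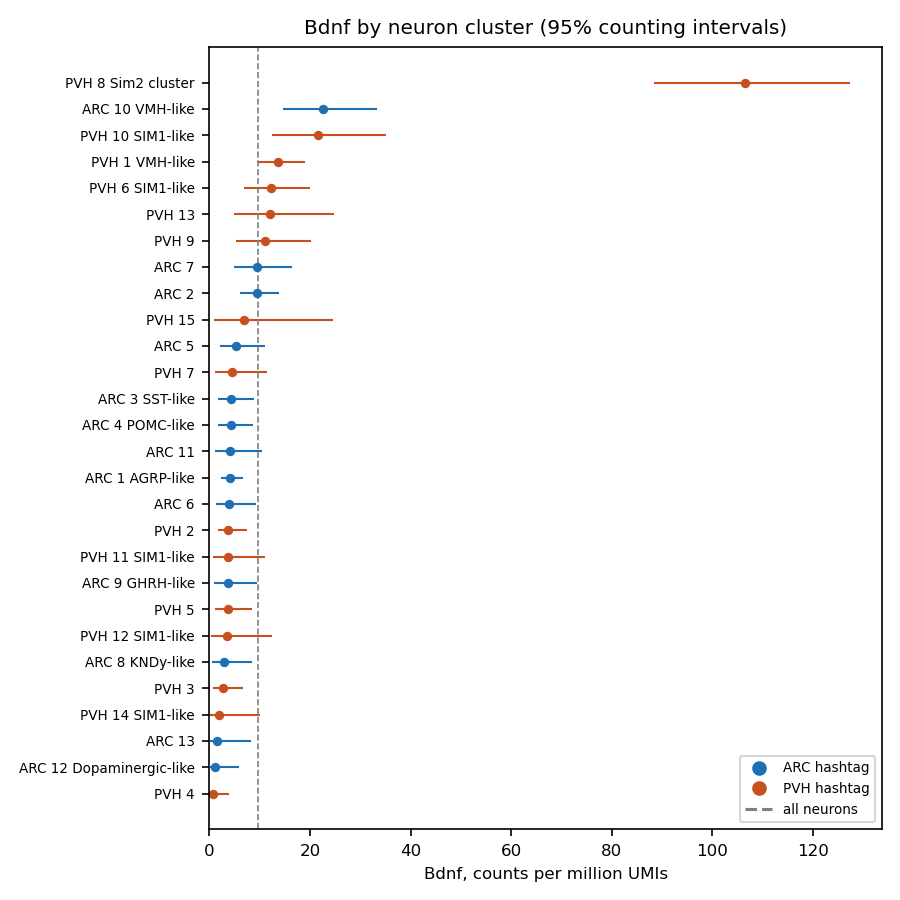
Bdnf level in each of the 28 neuron clusters (horizontal axis, CPM), ordered from highest to lowest, with points for the level and bars for the 95% counting interval. The Sim2 cluster sits at 107 CPM, and the next cluster, VMH-like on the ARC side, at 22.6 CPM.

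The classes best known for feeding control were near the cluster median of Bdnf. AGRP-like neurons, which drive feeding, had 15 UMIs in 686 nuclei (4.04 CPM, 2.26 to 6.66) and POMC-like neurons, which restrain it, had 7 UMIs in 282 nuclei (4.25 CPM, 1.71 to 8.76). SST-like neurons had 7 UMIs, GHRH-like 4, KNDy-like 3 and Dopaminergic-like 1. Only AGRP-like neurons had enough UMIs to be counted as measured, and their level was 0.62 of the other ARC-hashtag neurons (0.34 to 1.07), in a comparison where 10.5% of genes were at least 1.5-fold lower. The ratio passed 1.5-fold in 7 of 12 alternatives (log2 -0.99 to -0.31). On the PVH side, SIM1-like neurons had 37 UMIs in 622 nuclei (9.48 CPM, 6.67 to 13.1) and the ratio to the other neurons was 0.62 (0.42 to 0.88), with 10.1% of genes at least 1.5-fold lower. The direction did not hold: thinned to 1000 UMIs per nucleus the log2 ratio turned from -0.70 to 0.15. Those other neurons include the Sim2 cluster and PVH cluster 4, whose Sim1 levels (198 and 239 CPM) were close to the 207 to 380 CPM of the SIM1-like clusters. Without the Sim2 cluster the other neurons had 76 UMIs, which also turned the ratio, to 1.46 (0.96 to 2.19). This was short of 1.5-fold, and 17.2% of genes differed by at least as much. Among the SIM1-like clusters Bdnf ran from 16 UMIs in cluster 10, 1.59 times the other PVH-hashtag neurons (0.89 to 2.63; 3.88% of genes at least 1.5-fold higher), to 3 UMIs in cluster 11, 2 in cluster 12 and 1 in cluster 14. In cluster 11 the ratio was 0.26 (0.053 to 0.77), with 17.8% of genes at least 1.5-fold lower, and in clusters 12 and 14 Bdnf was below the expected count needed.

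Summed over clusters, glutamatergic neurons held more Bdnf than GABAergic ones on both sides, but single clusters overlapped widely. ARC-hashtag glutamatergic clusters had 73 UMIs (9.31 CPM) and GABAergic clusters 44 UMIs (3.80 CPM), a 2.45-fold difference (1.66 to 3.64). PVH-hashtag glutamatergic clusters had 209 UMIs (17.8 CPM) and GABAergic clusters 25 UMIs (5.02 CPM), a 3.54-fold difference (2.33 to 5.59). Of the PVH-side glutamatergic clusters, 2, 4, 11, 12 and 14 lay between 0.688 and 3.78 CPM, below the GABAergic sum, whereas GABAergic cluster 9 was at 11.0 CPM. On the ARC side glutamatergic KNDy-like neurons were at 2.87 CPM. ARC cluster 2, with 26 of the 73 UMIs, was counted as glutamatergic at 48.0 CPM of Slc17a6 and 39.0 CPM of Slc32a1. PVH cluster 2 was also counted so, at 51.5 and 43.5 CPM. ARC cluster 2 met the SIM1 rule, with 61.7 CPM of Sim1. It stayed unnamed because it also passed the marker lists of oligodendrocytes and their precursors. PVH cluster 2 passed the astrocyte and oligodendrocyte lists. In the ARC-side and PVH-side comparisons 3.61% and 4.29% of genes were at least 1.5-fold higher in the glutamatergic clusters. Without the Sim2 cluster the PVH-side ratio was 1.65 (1.05 to 2.68), with 4% of genes at least 1.5-fold higher. Without the VMH-like cluster the ARC-side ratio was 1.87 (1.22 to 2.89) on 92 UMIs, below the count needed, and 6.37% of genes passed either way. Between the sides, the levels without the Sim2 cluster were 7.24 and 6.03 CPM, a log2 ratio of 0.27 (-0.12 to 0.65) against 1.21 with it, and 8.81% of genes passed 1.5-fold either way.

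**Figure D3:**
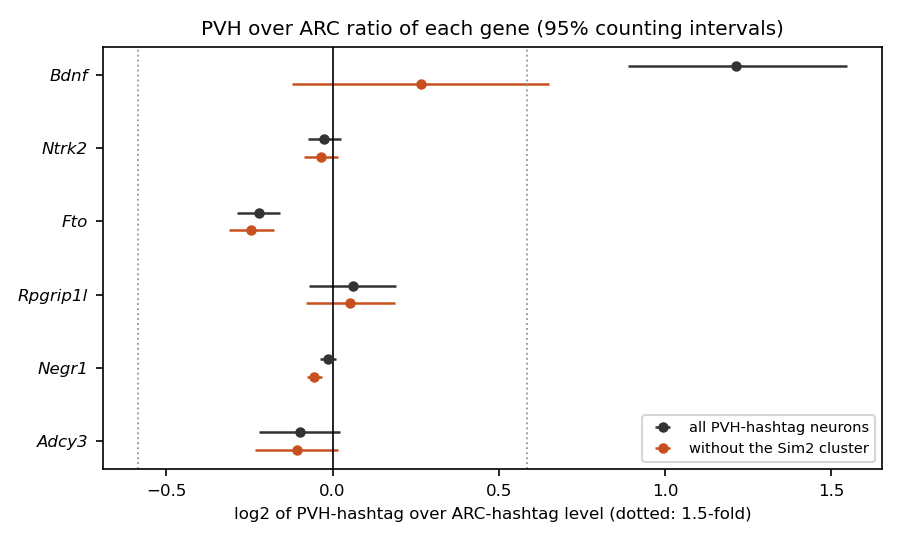
Log2 of the PVH-hashtag over the ARC-hashtag level for 6 genes (horizontal axis), with 95% counting intervals, for all neurons (dark) and without the Sim2 cluster (orange). Bdnf lies at 1.21 with the cluster and at 0.27 without it, and the other 5 genes lie inside the dotted 1.5-fold lines in both.

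Ntrk2, the receptor gene, was abundant and nearly even, unlike its ligand. It had 7105 UMIs in ARC-hashtag neurons (366 CPM, 358 to 375) and 6022 in PVH-hashtag neurons (360 CPM, 351 to 369), a ratio of 0.98 (0.95 to 1.02). A UMI was found in 79.2% and 81.2% of nuclei, or 30.4% and 28.9% after thinning. Over the 28 clusters the highest level was 1.98 times the lowest, 27 clusters lay within 1.5-fold of the median, and no neighbouring pair in the order had separate intervals.

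GHRH-like neurons were at the top for Ntrk2, with 468 CPM (428 to 510), and KNDy-like neurons at the bottom, with 236 CPM (207 to 267). The KNDy-like level was 0.63 of the other ARC-hashtag neurons (0.55 to 0.72). In this comparison 13.2% of genes were at least 1.5-fold lower. Thinned to 1000 UMIs per nucleus the difference was smaller, with a log2 ratio of -0.38 against -0.66, and no longer passed 1.5-fold. In the Dopaminergic-like, GHRH-like, SST-like and VMH-like classes of the ARC side and in PVH cluster 1 no measured member passed, where 18.3%, 16.9%, 11.6%, 19.8% and 8.59% of genes did either way. POMC-like neurons stood at 391 CPM (362 to 423), AGRP-like at 344 CPM (325 to 363) and SIM1-like at 342 CPM (324 to 360). The Sim2 cluster, with the highest Bdnf, had 397 CPM of Ntrk2, 1.11-fold the other PVH-hashtag neurons (1.01 to 1.23). The direction held in 12 of 13 alternatives (log2 -0.19 to 0.27).

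The set-apart non-neuronal cluster had 88 Ntrk2 UMIs in 29 nuclei, 1024 CPM (821 to 1262), more than any neuron cluster. Astrocytes are known for a truncated TrkB receptor without the kinase domain, and gene counts do not separate that form from the full-length receptor. Among neuron clusters, the 2 with the most oligodendrocyte marker RNA had 375 CPM of Ntrk2 (ARC cluster 2) and 373 CPM (PVH cluster 2), and PVH cluster 13, with the most astrocyte marker RNA, had 336 CPM. Of those with the most tanycyte marker RNA, ARC cluster 11 (770 CPM of markers) had 355 CPM of Ntrk2, PVH cluster 12 (637 CPM) had 434 CPM and ARC cluster 5 (336 CPM) had 412 CPM. ARC clusters 11 and 5 and PVH cluster 12 did not pass the tanycyte marker list, which needs at least 3 raised markers. Their sums may rest on fewer genes than that. The part of glial RNA in the Ntrk2 levels was not tested.

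Nuclei with a Bdnf UMI often had an Ntrk2 UMI too, but they were also deeper. On the ARC side 94 of 104 Bdnf-positive nuclei (90.4%, 83.0 to 95.3) had Ntrk2, at a median of 5545.5 UMIs, against 78.9% of the other nuclei at a median of 4813.5. On the PVH side the shares were 89.8% and 80.7%. At 1000 UMIs per nucleus they were 42.3% (23.4 to 63.1) and 30.3% (28.8 to 31.8) on the ARC side, and 28.9% (15.4 to 45.9) and 28.9% (27.3 to 30.6) on the PVH side. The intervals overlapped in both, so a difference was not detectable at this depth.

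Ntf3 and Ntf5, which encode further neurotrophins, were at low counts. Over both sides Ntf3 had 33 UMIs and Ntf5 had 2, below the 100 UMIs needed. Of the 13 genes in a list of neurotrophins, their receptors and processing enzymes 8 were measured, and in PVH-hashtag neurons 2 were at least 1.5-fold higher and 1 lower, against 4.53% and 4.07% of all genes, with a median log2 ratio of 0.01 against -0.05 over all genes. Sorcs2, whose product is a sorting receptor that also binds proneurotrophins, was at 81.7 CPM against 24.0 CPM, 3.41-fold higher (3.07 to 3.80). Its relative Sorcs1 was at 411 against 227 CPM, 1.81-fold higher (1.74 to 1.88), whereas Sorcs3 was at 258 against 400 CPM, 1.55-fold lower. Sorcs3 was highest in AGRP-like neurons at 864 CPM, where Sorcs2 was at 4.84 CPM. Sort1 (68.1 against 66.7 CPM) and Ntrk3, the neurotrophin-3 receptor gene (299 against 312 CPM), were close to even.

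Of 15 genes that act downstream of TrkB, 14 were measured and 1 passed 1.5-fold between the sides, against 8.6% of all genes. Gab1, an adaptor for growth factor receptors, was at 9.62 CPM in PVH-hashtag and 25.5 CPM in ARC-hashtag neurons, 2.65-fold lower. Its level was 45.5 CPM in AGRP-like and 43.5 CPM in GHRH-like neurons, and 3.83 CPM in KNDy-like neurons on 4 UMIs. The other 13 lay between a ratio of 0.76 for Sh2b2 (0.69 to 0.85) and 1.09 for Shc1 (0.86 to 1.38). The median log2 ratio of the list was -0.14.

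Negr1 was the most abundant member, with 33070 UMIs in ARC-hashtag neurons (1704 CPM) and 28246 in PVH-hashtag neurons (1688 CPM), a ratio of 0.99 (0.97 to 1.01). It was found in 98.3% and 97.7% of nuclei. It also differed more between neuron types than any member but Bdnf, with 6.68-fold from the highest to the lowest cluster and 26 of 28 cluster intervals apart from the level of all neurons.

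KNDy-like neurons had the highest Negr1, 2776 UMIs in 209 nuclei (2660 CPM, 2562 to 2761), and this interval stood apart from the next cluster. The ratio to the other ARC-hashtag neurons was 1.61 (1.55 to 1.68), where 6.33% of genes were at least 1.5-fold higher. They were therefore highest for Negr1 and lowest for Ntrk2. The Sim2 cluster followed with 2336 CPM (2248 to 2427), and AGRP-like neurons had 2038 CPM. POMC-like neurons had the lowest Negr1 on the ARC side, 1029 CPM (981 to 1080), 0.58 of the other neurons (0.55 to 0.61), where 9.62% of genes were at least 1.5-fold lower.

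SIM1-like neurons had 1028 CPM of Negr1, 0.54 of the other PVH-hashtag neurons (0.53 to 0.56). With both hashtags clustered together the log2 ratio was -0.53 against -0.88 and no longer passed 1.5-fold. Their 5 clusters were unlike each other. Clusters 6 and 12 had 1587 and 1337 CPM, and no measured member passed 1.5-fold in them, where 15% and 16.7% of genes did either way. Cluster 10 had 981 CPM, 0.57 of the other neurons (0.53 to 0.61), where 11.2% of genes were at least 1.5-fold lower. Cluster 11, in which the oxytocin precursor gene Oxt was at 2003 CPM against 460 to 614 CPM in the other PVH-hashtag clusters, had 422 CPM (378 to 470). Cluster 14, in which the vasopressin precursor gene Avp was at 1483 CPM against 220 to 333 CPM elsewhere on the PVH side, had 398 CPM (348 to 455). These 2 were the lowest of all 28 clusters, 0.24 and 0.23 of the other PVH-hashtag neurons. Genes at least 1.5-fold lower made up 17.8% in cluster 11 and 16.6% in cluster 14. A Negr1 UMI was found in 88.8% of nuclei in cluster 11 at a median of 7088 UMIs and in 78.7% in cluster 14 at a median of 5756. After thinning the shares were 27.1% (19.0 to 36.6) and 27.0% (18.1 to 37.4), against 74.5% in all PVH-hashtag neurons.

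The other 4 IgLON genes were all measured. Between the sides Ntm was 1.97-fold higher in PVH-hashtag neurons (1265 against 641 CPM; 4.53% of genes at least 1.5-fold higher) and Opcml, Lsamp and Iglon5 lay within 1.5-fold, with ratios of 1.32, 1.13 and 1.04. In AGRP-like neurons Ntm was at 209 CPM and Opcml at 266 CPM, both at least 1.5-fold lower than in the other ARC-hashtag neurons, as were 10.5% of genes, whereas Negr1 was 1.25-fold higher. In KNDy-like neurons Ntm was at 1316 CPM and Opcml at 321 CPM. In PVH cluster 14 Ntm and Opcml were at 232 and 116 CPM along with low Negr1, whereas Lsamp was at 4312 CPM.

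**Figure D4:**
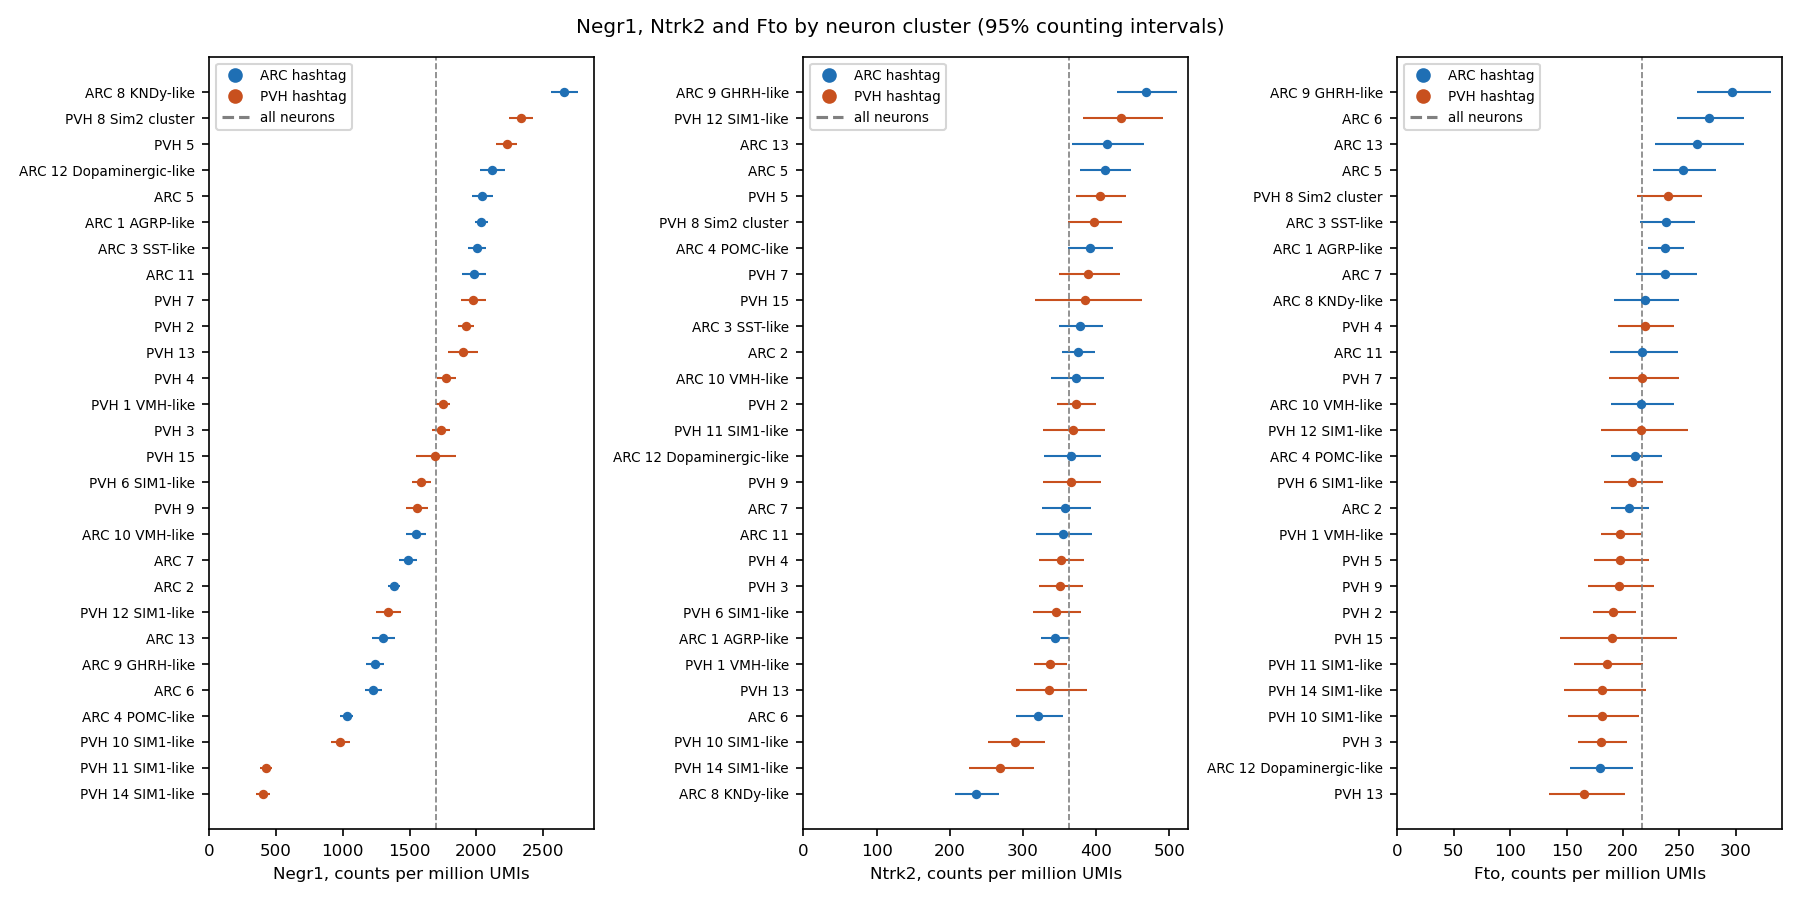
Levels of Negr1, Ntrk2 and Fto in the 28 neuron clusters (horizontal axes, CPM), each ordered from highest to lowest, with 95% counting intervals and a dashed line at the level of all neurons. Negr1 runs from 2660 CPM in KNDy-like neurons to 398 CPM in SIM1-like cluster 14, whereas Ntrk2 and Fto stay within a 1.98-fold and a 1.79-fold range.

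Fto, the demethylase gene, had the narrowest range over clusters of the 6 measured members, 1.79-fold from the highest to the lowest. It had 4515 UMIs in ARC-hashtag neurons (233 CPM, 226 to 240) and 3336 in PVH-hashtag neurons (199 CPM, 193 to 206). The ratio was 0.86 (0.82 to 0.90), so the PVH-side level was lower beyond counting error but within 1.5-fold, and 31.7% of all genes differed by at least as much. All 28 clusters lay within 1.5-fold of the median, from 297 CPM (265 to 331) in GHRH-like neurons to 166 CPM (134 to 202) in PVH cluster 13. AGRP-like neurons had 238 CPM (222 to 254), POMC-like 211 CPM (189 to 234) and SIM1-like 196 CPM (182 to 210). GHRH-like neurons were thus highest for both Fto and Ntrk2, at 1.30-fold the other ARC-hashtag neurons for each. As for Ntrk2, no neighbouring pair in the Fto order had separate intervals. The 8 genes for writing, reading or erasing RNA methyl marks were all measured and none passed 1.5-fold between the sides, where 8.6% of all genes did. Alkbh5, the other demethylase gene of that list, was at 15.3 against 13.5 CPM.

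Rpgrip1l, which starts 263 bases from Fto, had 1001 UMIs in ARC-hashtag neurons (51.6 CPM, 48.4 to 54.9) and 900 in PVH-hashtag neurons (53.8 CPM, 50.3 to 57.4), a ratio of 1.04 (0.95 to 1.14). Per kb of gene span over all neurons, Fto reached 0.612 and Rpgrip1l 0.547 CPM per kb, and per kb of exon 16.7 and 3.58 CPM per kb, so Fto was higher by both lengths and the gap was wider per kb of exon. Across clusters 26 of 28 lay within 1.5-fold of the median of 52.3 CPM. The highest was PVH cluster 15, a GABAergic cluster of 55 nuclei, with 88.5 CPM (57.8 to 130). The lowest was PVH cluster 13, with 9 UMIs in 95 nuclei (15.5 CPM, 7.10 to 29.5), a glutamatergic cluster with Lhx9 and Tcf7l2 among its leading genes. The latter interval stood apart from the next lowest, PVH cluster 2 with 40.7 CPM (32.5 to 50.2). PVH cluster 13 was also the lowest for Fto. Over all 28 clusters, however, the Pearson correlation of the log2 levels of Fto and Rpgrip1l was 0.17, given as a description over clusters that share 1 library.

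Irx3 and Irx5 were at the edge of detection. Irx3 had 1 UMI in ARC-hashtag neurons, in the VMH-like cluster, and 2 in PVH-hashtag neurons, 1 in the Sim2 cluster and 1 in PVH cluster 2. Irx5 had none in 3738 ARC-hashtag neurons, and 3 UMIs in 2 PVH-hashtag nuclei, of the GABAergic clusters 9 and 3. For the ARC side the exact upper limit of the share with a UMI was 0.0986%, and the floor of 3 nuclei corresponds to 0.0803%. These limits concern detection of a UMI at this depth and not expression. A floor of 3 UMIs per side corresponds to 0.155 CPM on the ARC side and 0.179 CPM on the PVH side, so no ratio is given for either gene. The antisense gene Irx3os had 0 UMIs. Among the other Iroquois genes Irx1 and Irx2 had 3 UMIs each and Irx4 and Irx6 had 0. The 3 measured neighbours of the region were detected and within 1.5-fold between the sides: Chd9 was at 499 against 571 CPM, Rbl2 at 64.7 against 66.5 CPM and Aktip at 54.5 against 51.1 CPM. Irx3 spans 3.54 kb and Irx5 18.7 kb, and per kb of exon Irx3 was at 0.0301 CPM per kb against 16.7 CPM per kb for Fto.

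Adcy3, the cyclase gene of neuronal cilia, had 1226 UMIs in ARC-hashtag neurons (63.2 CPM, 59.7 to 66.8) and 987 in PVH-hashtag neurons (59.0 CPM, 55.4 to 62.8), a ratio of 0.93 (0.86 to 1.02). It was found in 26.9% and 26.5% of nuclei. Its clusters ran from 86.4 CPM (68.9 to 107) in ARC cluster 11, a GABAergic cluster with 92.6 CPM of Lepr and the most tanycyte marker RNA among neuron clusters (770 CPM), to 39.8 CPM (25.0 to 60.3) in SIM1-like cluster 14. ARC cluster 11 did not pass the tanycyte marker list, and the part of that marker RNA in the Adcy3 level was not tested. No neighbouring pair in that order had separate intervals, and 27 of 28 clusters lay within 1.5-fold of the median. Of 20 other ciliary genes 18 were measured and none passed 1.5-fold between the sides, where 8.6% of all genes did, from Bbs9 with a ratio of 0.78 to Bbs12 with 1.17. The receptor genes Sstr3 and Mchr1, whose products localise to cilia, had 15 and 99 UMIs and were below the count needed. Adcy3 and Rpgrip1l, whose products both act at cilia, had the highest correlation between 2 members over the 28 clusters, 0.45. The next highest were those of Adcy3 with Ntrk2 and with Fto, 0.38 each. Nuclei with an Adcy3 UMI had Rpgrip1l in 23.7% on the ARC side against 22.3% of the others, and in 24.4% against 24.9% on the PVH side. After thinning the shares were 4.48% against 4.98% and 3.85% against 5.53%, and the intervals overlapped in all 4 comparisons.

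**Figure D5:**
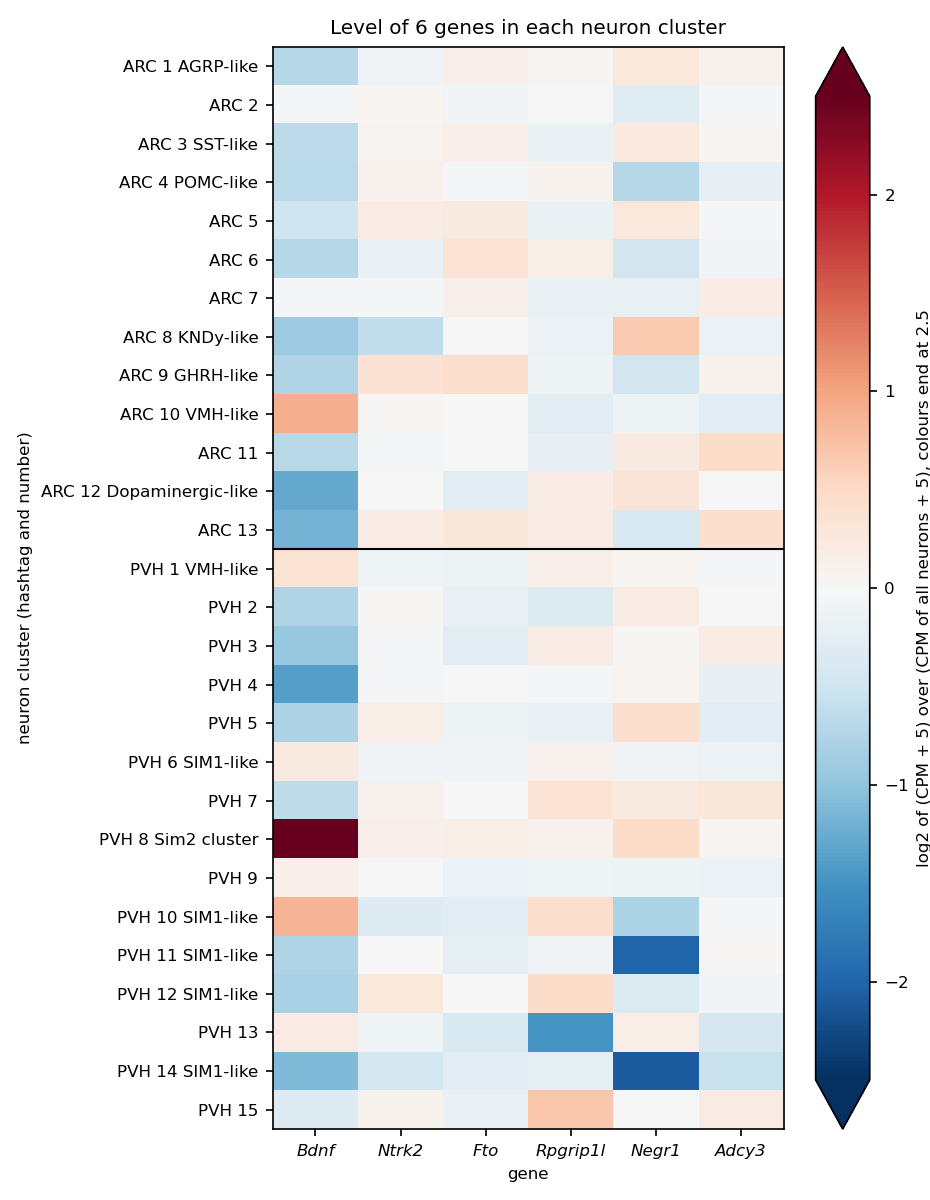
Level of each of 6 genes (columns) in each neuron cluster (rows) relative to all neurons, as log2 of the level plus a pseudocount of 5 CPM, with ARC-hashtag clusters above and PVH-hashtag clusters below the black line. The darkest red cell is Bdnf in the Sim2 cluster (107 CPM), and the darkest blue cells are Negr1 in SIM1-like clusters 11 and 14 (422 and 398 CPM).

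A further 18 genes at other obesity loci were read in the same way, and 15 were measured. Of these, 1 was at least 1.5-fold higher in PVH-hashtag neurons and 1 lower, against 4.53% and 4.07% of all genes. Sim1 was at 109 CPM in PVH-hashtag and 10.6 CPM in ARC-hashtag neurons. On the ARC side it was at 61.7 CPM in ARC cluster 2 and at most 4.41 CPM in the other neuron clusters. Lepr, the leptin receptor gene, was at 10.0 CPM in PVH-hashtag and 45.9 CPM in ARC-hashtag neurons, 4.57-fold lower on the PVH side. The other 13 lay within 1.5-fold, from Kctd15 with a ratio of 0.74 (0.59 to 0.93) to Cadm1 with 1.37 (1.34 to 1.41). Cadm2 and Lingo2 were at 1.37 and 1.34, and Nrxn3 at 0.93. Mc4r had 33 UMIs, below the count needed.

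When both hashtags were clustered together, 4 clusters held at least 50 nuclei of each side and allowed the sides to be compared within a shared cluster. One of them passed the astrocyte and tanycyte marker lists. In these, 0 of the measured member ratios passed 1.5-fold. The Fto ratios were 0.90, 0.88, 0.99 and 0.94, with intervals that all included 1. The Negr1 ratios were 1.18, 1.28, 1.16 and 1.14, with intervals above 1, whereas over all neurons the ratio was 0.99. The mix of cells in a shared cluster can differ between the sides, and its part in these ratios was not tested. The shared Dopaminergic-like cluster, with a ratio of 1.16, has leading genes in common with ARC clusters 12 and 13 and PVH cluster 7. Those had 2120, 1299 and 1978 CPM of Negr1. The shares of genes past 1.5-fold either way were 5.26%, 10.1%, 8.38% and 5.55%. In the shared VMH-like cluster Bdnf was at 23.7 CPM on both sides, on 26 ARC-side and 9 PVH-side UMIs. These were below the count needed, and the interval of the ratio was wide (0.41 to 2.20).

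The genes whose levels over the 28 clusters were most like each member were taken among 12265 genes with at least 200 UMIs, as Pearson r of log2 (CPM + 5). For Bdnf these were Lgr5 (0.77), Gm2694 (0.73) and A930009A15Rik (0.72). The Sim2 cluster held 80 of 312, 192 of 682 and 28 of 209 of their UMIs, and correlations without that cluster were not computed. Lgr5 was at 70.5 CPM in the Sim2 cluster and among the leading genes of the ARC-side VMH-like cluster. For Negr1 the nearest was Gm15577 (0.92), followed by Tef (0.82) and Dlgap2 (0.81). For Ntrk2 the nearest was Gm47423 (0.78), followed by Rapgef2 (0.69) and Sik1 (0.67). Fto was nearest to Map7 (0.82), Rpgrip1l to Champ1 (0.78) and Adcy3 to BB365896 (0.78). With 28 points from 1 library these are descriptions.

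The nearest genes of Negr1 and Ntrk2 both lie inside the member on the opposite strand. Gm15577 is annotated as antisense at chr3:156903863-156920780 within Negr1, and had 1615 UMIs, with 7.24 CPM in cluster 14, 15.0 CPM in cluster 11 and 59.4 CPM in KNDy-like neurons. Its highest levels were elsewhere, at 69.0 CPM in PVH cluster 5, 68.3 CPM in Dopaminergic-like neurons and 60.8 CPM in the Sim2 cluster. Gm47423 lies at chr13:58824218-58826994 within Ntrk2, and had 2479 UMIs, and 4930415C11Rik at chr13:59054896-59084093 had 4554 UMIs, equal to 18.9% and 34.7% of the Ntrk2 count. Both were lowest in KNDy-like neurons, at 36.4 and 79.5 CPM, as was Ntrk2. Within Fto, the antisense genes 4831440D22Rik and Gm3235 had 1063 and 1089 UMIs, with r of 0.24 and 0.30. Adcy3 overlaps Cenpo on the opposite strand, which had 434 UMIs. The matrix counts each of these opposite-strand genes separately from its member. The sources used here do not say how the authors' counting treated strand and introns. Whether reads of a member were counted for its opposite-strand partner, or the reverse, was not tested.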

How the data were processed

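Nuclei of micro-dissected, NeuN-sorted tissue were captured with 10x Genomics Chromium v.3. The deposited matrix holds raw UMI counts per gene and nucleus, made by the authors with Cell Ranger (5.0 in the submitters' processing notes, 4.0.0 in the file header) on mm10, with 2 hashtag rows. No barcode occurred more than once among 11409. Nuclei with 800 to 5000 genes, at most 12000 counts and at most 1% mitochondrial counts were kept (10170), with 23249 genes. Hashtags were called in Seurat (HTODemux, positive quantile 0.8): 944 doublets of both hashtags and 2385 unassigned nuclei were left out, and no further doublet caller was run. Each side was clustered separately (2000 variable genes without the 8 members, 30 components, Leiden resolution 0.55). A class name needed 3 or more list markers, the leading one included, at 1.5-fold over the other neurons with at least 3 UMIs each; clusters that met 2 names or a glial list got none. Levels are summed counts per 1000000 (CPM) with exact Poisson intervals, ratios have exact binomial intervals, and a ratio counted as measured from 100 UMIs over both groups (sides, transmitter groups) or 10 expected UMIs (classes). With 1 pooled matrix no test was made, and "passed" means 1.5-fold. Named besides the 8 members were genes of each list, including the gene with at least 100 UMIs whose ratio was furthest from 1. Also named were up to 3 genes most like each member, and others chosen after their values were seen. The members and lists were chosen with earlier results of these data known. Alternatives covered hashtag calling, filters, scaling, clustering and marker limits, and the removal of the Sim2 or VMH-like cluster was added after seeing the data. Shares were repeated after thinning to 1000 UMIs, which left out 1 PVH-hashtag nucleus. The ratio script was tested on simulated data. Versions were R 4.3.3, Seurat 5.3.0, leidenbase 0.1.32, Python 3.11.15, numpy 2.4.6, scipy 1.17.1, pandas 2.3.3 and matplotlib 3.10.9. Annotation was GENCODE M21; promoter windows were RefSeq, with entries for 7 of 8 members (none for Irx5). Some genes of the lists are not reported here.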

Additional observations from a re-analysis of the deposited data

How the results depend on the processing

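Log2 ratios are given. Thinned to 1000 UMIs per nucleus, Bdnf in SIM1-like neurons turned from -0.70 to 0.15, Bdnf in the Sim2 cluster was 3.46, Ntrk2 in KNDy-like neurons -0.38, Negr1 in SIM1-like neurons -0.98 and Fto between the sides -0.37. Without the Sim2 cluster, chosen after its Bdnf level was seen, Bdnf was 0.27 between the sides, 0.72 between glutamatergic and GABAergic PVH-hashtag clusters and 0.54 in SIM1-like neurons, the last a turn of direction, and Negr1 was -0.054 between the sides. Negr1 between the sides was -0.037 with no upper limits and 0.011 without the 50 genes with most UMIs. Negr1 in SIM1-like neurons was -0.79 with no upper limits and -0.53, short of 1.5-fold, with both hashtags clustered together. Ntrk2 between the sides was -0.10 at a positive quantile of 0.99, which left 1229 ARC-hashtag and 407 PVH-hashtag neurons. The other 199 values of these results lay within the counting interval of the value given. Of the values of the remaining results, 54 moved outside that interval and 623 did not. Among these results, Ntrk2 in the Sim2 cluster ran from -0.19 to 0.27 and Fto in GHRH-like neurons from 0.18 to 0.38. In each alternative the Sim2 cluster was the PVH-hashtag cluster with the highest Sim2 level. At a positive quantile of 0.99 that cluster held 331 of 407 PVH-hashtag neurons, against 186 nuclei in the main setting. Over the alternatives Bdnf in the Sim2 cluster ran from 3.46 to 3.93, Negr1 in KNDy-like neurons from 0.64 to 0.69 and in POMC-like neurons from -0.81 to -0.75, each past 1.5-fold in 13 of 13. The causes were not tested.

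All values come from 1 pooled matrix without replicates, so the spread between mice is unknown. Bdnf rests on 351 UMIs, and most clusters hold 10 or fewer. Oxt and Avp UMIs were found in all 28 neuron clusters, and the part of free RNA in the members’ low counts was not tested. No paired analysis was possible because the nuclei carry no replicate number and no test was made.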
